A study of Mus musculus with 8 samples.

Results

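Sites of the transcription factor OCT4 were compared between CUT&RUN libraries enriched for 5-hydroxymethylcytosine (hmC-Seal) and conventional CUT&RUN libraries of mouse embryonic stem cells. The part described here in depth is the set of gained sites, stretches of DNA called as peaks in both hmC-Seal replicates and in neither conventional replicate. Called regions of the 2 hmC-Seal libraries on chromosomes 1 to 19 and X that overlapped by at least 1 bp were joined into 13519 stretches, of which 897, or 6.64%, were gained. A further 141 stretches were kept, with a region in both hmC-Seal libraries and in at least 1 conventional library. Stretches of replicate 1 only numbered 2377 and those of replicate 2 only 10011, none of them called in a conventional library, and the other 93 joined 1 hmC-Seal library to a conventional one. In the opposite direction, both conventional libraries called 106 stretches. Of these, 20 were lost, meaning that neither hmC-Seal library called them.

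OCT4, encoded by Pou5f1, is a POU-domain transcription factor that binds an octamer sequence, often next to SOX2, and maintains the pluripotent state. Its sites in embryonic stem cells are mostly enhancers that lie away from gene starts. In DNA, 5-methylcytosine arises mainly at CG dinucleotides, and TET enzymes oxidise it to 5-hydroxymethylcytosine (5hmC), a mark found in these cells around enhancers and in gene bodies. In hmC-Seal, 5hmC is tagged with a modified glucose, linked to biotin and pulled down, so that a library keeps the fragments that carry it. CUT&RUN releases short fragments around an antibody-bound protein with a tethered nuclease.

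All libraries came from nuclei of male E14 embryonic stem cells, given as C57BL/6J in the labels, grown without feeders in N2B27+2i medium and otherwise untreated. The study's description of the line names no strain, so the strain is taken from the labels alone. About 4500000 cells entered each CUT&RUN experiment with an OCT4 antibody or an IgG control. The OCT4 DNA was prepared as 2 conventional libraries from 5 ng each, 2 hmC-Seal libraries from 30 ng each and 2 bisulfite libraries, the last of which keep methylated reads and cannot tell 5-methylcytosine from 5hmC. The replicates of a preparation were pools or numbered replicates with no separate culture named, so the spread between them may be technical. No IgG library of the hmC-Seal preparation was analysed here, so the fold enrichment of an hmC-Seal peak, its pileup over the local IgG background, is not corrected for what the 5hmC pull-down alone recovers.

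The conventional libraries held 186 and 200 distinct regions and the hmC-Seal libraries 3499 and 11061. The groups did not overlap, and the ratio of their geometric means was 32.3, but a two-sided exact permutation test gave p = 0.333, the smallest that 2 libraries against 2 allow. The lists hold no read totals. The study aimed for more reads in each hmC-Seal library than in each conventional one, so planned depth differed with the preparation. Numbers of fragments were estimated from the fold enrichment and p of each summit. The weakest summits rested on 8 and 7 fragments in the conventional libraries, 8 and 3 in the hmC-Seal libraries, and the median summit on 14, 12, 17 and 5. The 2 hmC-Seal lists therefore differ in length and in the evidence behind a call, and absence from a conventional list says only that no peak passed the threshold there.

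A few gained sites fell on annotated promoters, and the overlapping part of the promoter is printed to show the letters around these peaks. Of the 897 gained sites, 6 overlapped the 250 bases before a gene start in the RefSeq promoter windows, against 8 of the 141 kept sites. The windows covered 26794 genes, fewer than the 35541 with a start, so these are counts over part of the starts. The gained site 128 bp upstream of Tnks1bp1, for example, is not among the 6. The overlaps are shown for gained sites at the starts of Tut1, which codes for a nucleotidyltransferase acting on U6 RNA, Rras, which codes for a RAS-related GTPase, E2f3, which codes for a cell cycle transcription factor, and the long noncoding RNA Gm42808. Overlaps of kept sites at the histone gene H2ac6 and at Etv5, which codes for an ETS factor, are given for comparison. Sequences are RefSeq promoters of GRCm38.p6, printed on the strand of the gene, with CG dinucleotides, where 5hmC is mainly found, in capitals.
Tut1, gained, chr19:8953610-8953717, plus strand: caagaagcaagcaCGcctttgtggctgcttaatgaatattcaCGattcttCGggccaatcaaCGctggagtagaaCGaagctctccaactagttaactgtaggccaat
Rras, gained, chr7:45017692-45017941, plus strand: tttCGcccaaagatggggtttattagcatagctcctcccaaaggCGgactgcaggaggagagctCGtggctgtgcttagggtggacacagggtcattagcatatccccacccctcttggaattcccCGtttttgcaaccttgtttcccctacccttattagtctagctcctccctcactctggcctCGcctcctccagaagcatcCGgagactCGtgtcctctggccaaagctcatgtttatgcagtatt
E2f3, gained, chr13:29986098-29986291, minus strand: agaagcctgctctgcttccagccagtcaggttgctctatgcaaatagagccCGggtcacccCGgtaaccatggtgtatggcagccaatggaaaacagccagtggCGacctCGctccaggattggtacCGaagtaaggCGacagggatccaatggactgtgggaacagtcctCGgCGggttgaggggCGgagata
Gm42808, gained, chr5:140549816-140549957, minus strand: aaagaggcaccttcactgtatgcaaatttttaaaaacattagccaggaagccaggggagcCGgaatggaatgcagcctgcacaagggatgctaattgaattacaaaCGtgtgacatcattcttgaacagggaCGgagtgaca
H2ac6, kept, chr13:23684026-23684172, minus strand: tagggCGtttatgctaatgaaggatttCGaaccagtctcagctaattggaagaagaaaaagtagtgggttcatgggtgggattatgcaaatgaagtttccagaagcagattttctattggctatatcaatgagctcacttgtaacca
Etv5, kept, chr16:22439738-22439820, minus strand: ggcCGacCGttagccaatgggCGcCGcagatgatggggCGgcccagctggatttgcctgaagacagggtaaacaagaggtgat

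The 4 gained stretches hold 5 CG dinucleotides in 108 bases at Tut1, 7 in 250 at Rras, 9 in 194 at E2f3 and 3 in 142 at Gm42808. The kept ones hold 2 in 147 at H2ac6 and 5 in 83 at Etv5. Per 100 bases this is 4.63, 2.8, 4.64 and 2.11 for the gained ones and 1.36 and 6.02 for the kept ones. The median over all promoters of the table was 2.4, and the stretches at Gm42808 and H2ac6 lie below it. The octamer ATGCAAAT, searched on both strands, occurred in the promoter overlaps of 2 of the 6 gained sites, those at E2f3 and Gm42808, and of 4 of the 8 kept sites, H2ac6 among them. Over all 32619 promoter windows, 1.75% held it. Those windows are longer than most overlaps, and a match is a description of the letters, not a bound site.

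The gained sites had lower median folds than the kept sites and higher ones than the whole hmC-Seal lists. Fold enrichment at them had a median of 8.19 in hmC-Seal replicate 1 and 6.05 in replicate 2, with ranges of 1.35 to 45.2 and 1.51 to 88.3. All regions of the 2 lists had medians of 7.29 and 4.32, and kept sites had medians of 15.9 and 7.08. Gained stretches were also narrower, with a median width of 132 bp against 245 bp for kept sites. The median gained site rested on an estimated 21 fragments in replicate 1 and 7 in replicate 2. In replicate 2, 155 of the gained sites had fewer than 5 fragments. With at least 5 in both libraries, an alternative chosen after the data were seen, 714 gained sites were left.

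**Figure D1:**
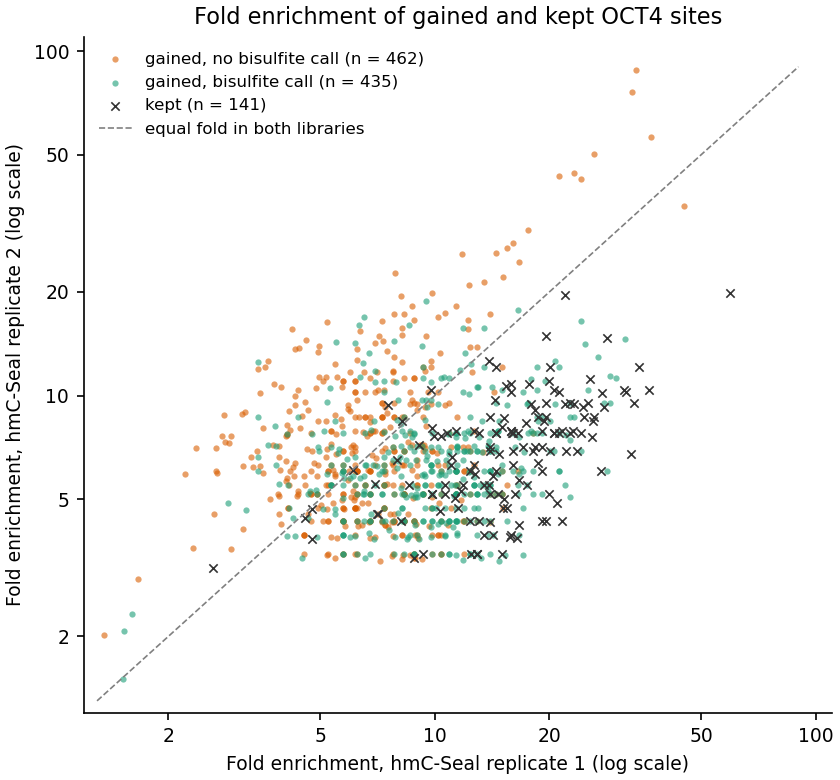
Fold enrichment over IgG at the summit in hmC-Seal replicate 1 (horizontal, log scale) and replicate 2 (vertical, log scale), 1 point per site. Orange points are the 462 gained sites without a bisulfite call, green points the 435 with one, crosses the 141 kept sites, and the dashed line marks equal fold. Kept sites lie below the line with 4 exceptions, while the highest gained sites are orange and mostly lie above it.

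The folds of the 2 hmC-Seal lists are not on a common scale, so which of the pair is higher at a site describes the lists and is not a difference in OCT4 signal. Replicate 2 gave the higher fold at 317 of 897 gained sites, or 35.3%, and at 4 of 141 kept sites, or 2.84%. Among gained sites without a bisulfite call the share was 51.1%, and among those with one 18.6%. These are values of sites that share 2 libraries, and no test was made over them.

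Ordered by the worse of their 2 ranks, the leading site lay on chromosome 18 inside Slc14a2, which codes for a urea transporter. Its fold enrichment was 33.8 in replicate 1 and 88.3 in replicate 2, on 166 and 159 estimated fragments. The next lay at chr13:77438945-77439056 inside 2210408I21Rik, with folds of 3.48 and 10.2. The third, at chr16:5709148-5709251, had folds of 37.0 and 56.2 and lay 175594 bp upstream of Rbfox1, which codes for a neuronal splicing factor. The fourth lay on chromosome 18 inside the noncoding RNA G630055G22Rik, 639269 bp upstream of Sema6a, a semaphorin gene, with folds of 32.9 and 76.1.

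Of the next 6 sites, 3 belonged to one cluster at the start of chromosome 9, described further on. One at chr2:66189186-66189479 lay inside Ttc21b, a gene of transport within cilia, with folds of 23.3 and 44.1. One at chr9:115350828-115350959 lay inside Gm30762 with folds of 45.2 and 35.5, and one at chr10:94592431-94592544 lay 31217 bp from the start of Gm32898 with folds of 26.2 and 50.2. Replicate 2 thus had the higher fold at each of these 10 sites but the one in Gm30762, and neither bisulfite library called any of the 10. None of them lay within 5 kb of a gene start, beside 10 of the first 100 and 12.0% of all gained sites, so this count of 0 is near the share of the rest. The share within 5 kb was 13.5% for places 101 to 300, 14.3% for 301 to 600 and 9.43% for 601 to 897. Among the first 100 gained sites in this order 43.0% had a bisulfite call, and among the remaining ones the share was 52.5% for places 101 to 300, 47.7% for 301 to 600 and 48.5% for 601 to 897.

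Gained sites lay near gene starts about as often as the genome as a whole. Of the 897, 108 were within 5 kb of a start, or 12.0% (95% Wilson interval 10.1 to 14.3), while 11.6% of the covered genome lies that close. Kept sites were that close in 21.3% (15.3 to 28.7), sites of replicate 1 only in 16.6% (15.2 to 18.2) and sites of replicate 2 only in 11.6% (11.0 to 12.2). The interval of gained sites does not reach the share of the kept sites. Intervals here cover counting error only, since sites of the same libraries are not independent replicates. Within 1 kb the numbers were 19 gained sites, or 2.12%, and 10 kept sites, or 7.09%, beside 2.52% of the genome.

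Gained sites, like the other classes, were most frequent at middle distances. Between 5 and 50 kb from a start lay 492 gained sites, or 54.9% (51.6 to 58.1), against 45.8% of 52262 points set every 50 kb along the chromosomes. Kept sites had 48.9% (40.8 to 57.1) there and sites of replicate 1 only 52.5% (50.5 to 54.5). Both intervals overlap that of gained sites, so the share is not particular to them. Sites of replicate 2 only had 47.0% (46.0 to 48.0). Beyond 50 kb lay 297 gained sites, or 33.1% (30.1 to 36.3), against 42.4% of the points, 29.8% of kept sites and 30.9% of replicate 1 only. The median distance was 27105 bp (95% interval 25080 to 30710) for gained sites, 22420 bp for kept sites, 23852 bp for replicate 1 only and 34815 bp for replicate 2 only, and 36928 bp for the points. Upstream of the nearest start lay 443 gained sites, or 49.4%, so neither side was preferred beyond counting error. The farthest, at chr14:83008612-83008820, lay 1066574 bp from the start of Gm32455 and was called in both bisulfite libraries.

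**Figure D2:**
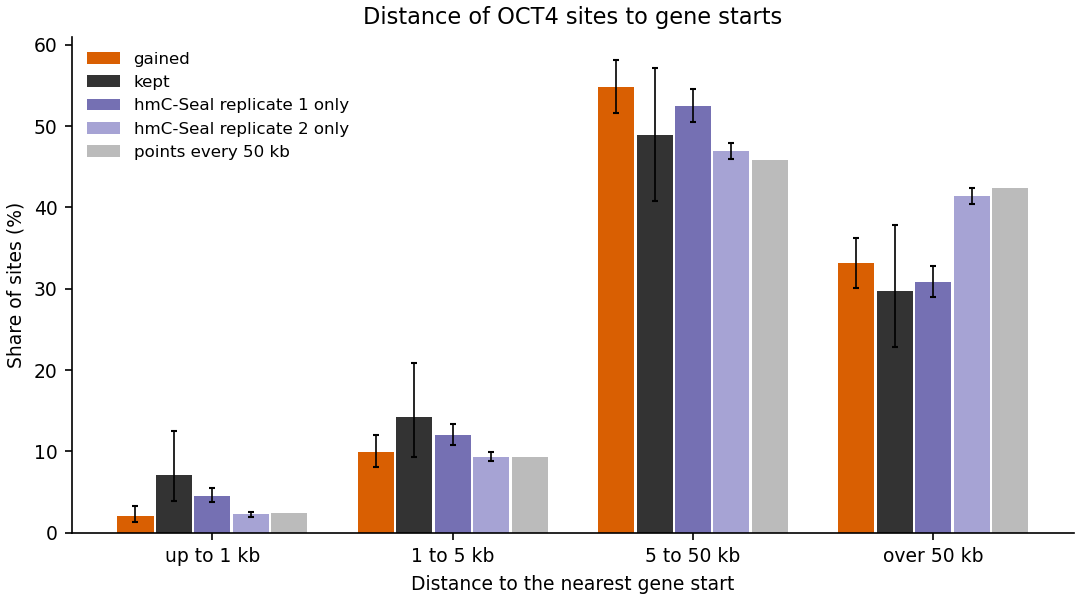
Share of sites (vertical, %) by distance to the nearest gene start (horizontal) for gained, kept and one-replicate sites, with 95% Wilson intervals, and for points every 50 kb. Gained sites resemble the points within 5 kb and exceed them between 5 and 50 kb (54.9% against 45.8%), as do sites of replicate 1 only (52.5%). Within 1 kb kept sites are highest (7.09%).

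Per library, regions within 5 kb of a gene start made up 19.9% and 19% of the conventional lists and 15.6% and 11.8% of the hmC-Seal lists. The conventional libraries were higher without overlap, by 5.75 percentage points on average, with an exact permutation p of 0.333 and 0.467 after Benjamini-Hochberg adjustment over 7 measures. The median distance of the lists overlapped between preparations, at 23188 and 25235 bp against 25170 and 33926 bp.

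Gene bodies did not stand out. Inside the span of a gene lay 398 gained sites, or 44.4% (41.2 to 47.6), beside 46.1% of kept sites and 47.6% of the genome. Spans of protein-coding genes held 327, or 36.5%, beside 39.4% of the genome, and those of long noncoding RNA genes 75, or 8.36%. Of 21631 protein-coding genes, 317 had a gained site inside. Their median span was 111 kb against 17.3 kb for all, and gene length was not adjusted for. By library the share inside a gene was 45.2% and 44.5% in conventional lists and 45.8% and 44.6% in hmC-Seal lists, and these overlapped (exact permutation p = 0.667).

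The nearest start belonged to a protein-coding gene for 463 gained sites, to a long noncoding RNA gene for 321 and to a pseudogene for 96. Long noncoding RNA genes thus stood nearest in 35.8% (32.7 to 39.0). Kept sites had 34.0%, sites of replicate 1 only 35.7% and sites of replicate 2 only 35.5%, so the share is not particular to gained sites. Such genes make up 27.9% of the starts in the gene table, a share that counts starts and not the length nearest to them. The 897 sites had 854 different nearest genes, and 29 genes were nearest to more than 1 site. Inside their span, 14 protein-coding genes held 2 gained sites each, and these were long genes, with a median span of 220 kb. Among them were Ebf1, a B-cell transcription factor gene, with 1 of its 2 sites called with bisulfite, Chd9, which codes for a chromatin remodeller, with both called, and Cntnap2, a neuronal adhesion gene of 2241 kb, with neither called. The noncoding Sox2ot, whose span contains Sox2, also held 2, both called with bisulfite.

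Within 1 kb of the start of a protein-coding gene lay 11 gained sites, or 1.23%, beside 1.52% of the covered genome. They are described for the genes they mark, not as an excess. The best-ranked was at Tut1 (chr19:8953610-8953717), 169 bp upstream of the start, with folds of 14.5 and 7.78, and bisulfite replicate 1 called it. At Dido1, which codes for a chromatin-associated PHD-finger protein, the site (chr2:180709137-180709336) lay 832 bp inside the gene with folds of 17.9 and 7.87. At Cyb5r1, a reductase gene, the site (chr1:134405090-134405194) lay 639 bp upstream with folds of 12.4 and 6.92, and both bisulfite libraries called it. These 3 sites were higher in replicate 1 than in replicate 2 by fold.

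Phc1 codes for a subunit of Polycomb repressive complex 1, and a gained site (chr6:122340699-122340801) lay 523 bp upstream of it with folds of 6.27 and 5.19, on 11 and 5 fragments, with no bisulfite call. Tnks1bp1, a gene for a tankyrase-binding protein, had the highest fold of the group in replicate 1, 21.9 against 5.51 in replicate 2, 128 bp upstream (chr2:85047764-85048007), and both bisulfite libraries called the site. At Rras the site (chr7:45017645-45017981) had folds of 13.9 and 5.51 with both bisulfite libraries, and at E2f3 (chr13:29986098-29986291) 9.81 and 4.72 with neither. Rras and E2f3 are those whose sequence is printed above. The sites at Srrm4, a neuronal splicing gene, Rex1bd, Zfp819 and Acoxl had folds between 7.90 and 11.4 in replicate 1 and between 4.32 and 11.0 in replicate 2. Rex1bd was the one site of the 11 with the higher fold in replicate 2, and 8 of the 11 had a bisulfite call. Over all gained sites these shares were 35.3% and 48.5%. With 11 sites and no test, the counts are a description.

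Lists of genes known in pluripotency and early development were searched for gained sites within 5 kb of the gene. Of 87 listed genes, 8 had one, or 9.20%, where 1.88% of all 21631 protein-coding genes did. The lists were drawn up with results of these data known, so this count is a description. None of the 87 had a kept site, and 0.337% of all protein-coding genes did. Sites of replicate 1 only lay at 14 of the 87, or 16.1%, beside 4.87% of protein-coding genes, and sites of replicate 2 only at 11, or 12.6%, beside 15.7%. Among 24 core pluripotency genes 3 had a gained site, among 18 genes of DNA methylation and hydroxymethylation 1, among 23 genes of Nodal, FGF, BMP and LIF signalling 3, and among 22 lineage regulators 1.

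Among the pluripotency factors, Sox2, the partner of OCT4 on DNA, had a site 4059 bp downstream of its start (chr3:34653989-34654120), with a fold of 19.1 in replicate 1 and 5.19 in replicate 2. Dppa3, a maternal factor that protects DNA methylation in the early embryo, had a site 1750 bp upstream (chr6:122624610-122624739) with folds of 14.7 and 7.87. Both bisulfite libraries called the sites at Sox2 and Dppa3. Utf1, a chromatin-associated factor of undifferentiated cells, had a site 1834 bp downstream of its start (chr7:139945617-139945764) with folds of 11.4 and 7.78, called in bisulfite replicate 2 alone.

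Tet2 codes for one of the enzymes that make 5hmC. Its site (chr3:133524641-133525114) lay inside the gene, 20259 bp from the start, with folds of 14.3 and 3.94, on 34 and 4 fragments, and both bisulfite libraries called it. At Lifr, the receptor gene for LIF, a site inside the gene (chr15:7115806-7115940) had folds of 17.5 and 9.51, the highest in replicate 2 of the listed genes, and both bisulfite calls. Nodal, the ligand of the Activin-type pathway, had a site 1887 bp upstream (chr10:61415971-61416200) with folds of 9.85 and 3.46, the second on 3 fragments. Fgf5, a growth factor gene switched on as cells leave the naive state, had a site 26702 bp from its start and just past its end (chr5:98280836-98280936) with folds of 7.29 and 7.78. In Pax3, a neural crest and muscle regulator, a site 77049 bp into the gene (chr1:78120031-78120143) had folds of 8.19 and 3.94. No bisulfite library called the sites at Nodal, Fgf5 or Pax3.

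**Figure D3:**
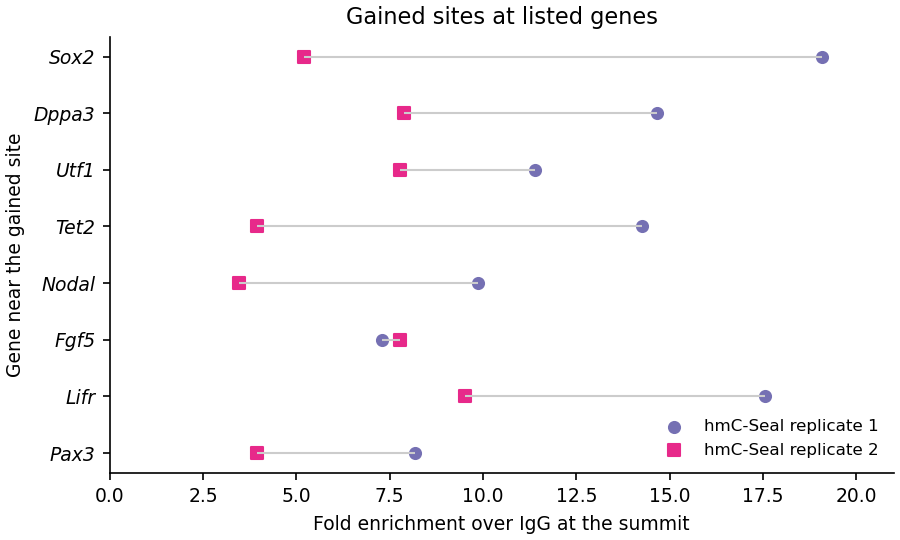
Fold enrichment over IgG at the summit (horizontal) of the gained site near each of the 8 listed genes (vertical), with circles for hmC-Seal replicate 1 and squares for replicate 2. Replicate 1 is higher at all but Fgf5, and at Sox2 the values are 19.1 and 5.19. The 2 lists are not on a common scale.

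By chromosome, gained sites followed length with 3 exceptions. Over the covered 2613 Mb they numbered 3.43 per 10 Mb, with a range of 2.16 on X to 4.59 on chromosome 11. For 17 of 20 chromosomes the 95% interval of the share of sites held the share of the length. Chromosome X had 37 sites, or 4.12% (3.01 to 5.63), with 6.54% of the length. It is present once in male cells. Chromosome 10 had 58, or 6.47% (5.04 to 8.27) with 4.88% of the length, and chromosome 11 had 56, or 6.24% (4.84 to 8.02) with 4.67%. Without the 100 kb bins that held 10 or more summits in some library, chromosome 11 had 53 of 881, or 6.02% (4.63 to 7.79), an interval that holds its share of the length, while chromosome 10 (5.13 to 8.42) and X (2.87 to 5.47) still lay apart from theirs. Kept sites on X numbered 2 of 141, or 1.42% (0.390 to 5.02), and X held 3.96% of the sites of replicate 1 only and 5.77% of replicate 2 only. Chromosome 10 held 7.09% of kept sites, 5.76% of replicate 1 only and 5.44% of replicate 2 only, and chromosome 11 held 8.51%, 5.97% and 5.16%. These classes thus departed from length in the same direction, and the exceptions are not particular to gained sites.

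**Figure D4:**
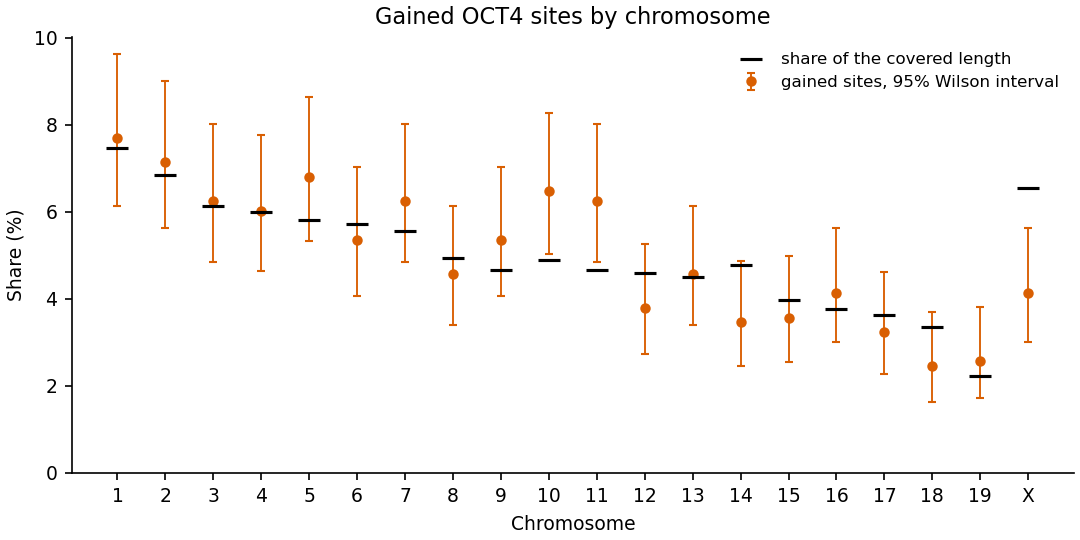
Share of the 897 gained sites on each chromosome (points, %, with 95% Wilson intervals) and share of the covered length (bars). Points follow the bars except on X, which lies below (4.12% against 6.54%), and on chromosomes 10 and 11, which lie above, chromosome 11 only while dense bins are included.

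By library, X held 2.69% and 1.00% of the conventional regions and 3.80% and 5.58% of the hmC-Seal regions. The hmC-Seal libraries were higher without overlap, by 2.85 percentage points (exact permutation p = 0.333, adjusted 0.467).

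The median distance to the next gained site was 895 kb, and 868 of 897 had no other within 10 kb. The remaining 29, or 3.23% (2.26 to 4.61), formed 9 clusters, beside 2.84% of kept sites and 8.54% and 8.26% of the sites of replicate 1 only and replicate 2 only, counted inside each class. With gaps of up to 50 kb there were 23 clusters with 58 sites. Over the whole lists, 11.2% and 9.67% of the hmC-Seal regions and 5.38% and 9% of the conventional regions had a neighbour within 10 kb, without overlap between the preparations (exact permutation p = 0.333, adjusted 0.467), and a denser list has closer neighbours. The largest cluster held 11 sites in 38388 bp at the start of the assembled sequence of chromosome 9 (chr9:3000026-3038413), at least 161516 bp from the nearest start, 4930433N12Rik. Its folds ran from 1.67 to 5.23 in replicate 1 and from 2.93 to 16.3 in replicate 2, with 355 and 285 estimated fragments at its best-ranked site, and no bisulfite library called any of its sites. This stretch is in one of 5 bins of 100 kb that held 10 or more summits in some library. Without those bins, 13 of 881 gained sites, or 1.48%, were in clusters.

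Among the other clusters, 3 sites in 2877 bp lay 20085 to 22714 bp from Pisd-ps1 (chr11:3101232-3104108), in another such bin and without a bisulfite call. By contrast, 3 sites in 5454 bp upstream of 1700010I02Rik (chr3:8001153-8006606) had folds of 8.96 to 12.3 and 3.94 to 6.01, and each was called with bisulfite. The remaining 6 clusters were pairs, near Gm10340, Gm9027, Sis, Gm46033, Gm15065 and G530011O06Rik. Both sites near Sis, the sucrase-isomaltase gene, had a bisulfite call (chr3:72858801-72868534), and neither did near Gm10340, Gm15065 or G530011O06Rik.

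The bisulfite libraries, which took no part in choosing the sites, called 435 of the 897 gained sites, or 48.5% (45.2 to 51.8). Bisulfite replicate 1 called 336, or 37.5%, and replicate 2 called 351, or 39.1%, with 252 called by both. For kept sites the share called by either was 97.9% (93.9 to 99.3), for replicate 1 only 27.8% (26.0 to 29.6) and for replicate 2 only 2.41% (2.12 to 2.73). Of the 20 lost sites 3 were called. Gained sites thus stood between kept sites and those of a single hmC-Seal replicate, in both bisulfite libraries. By definition these classes differ in how many other libraries called a site. They also differ in width, with medians of 245 bp for kept, 132 bp for gained, 108 bp for replicate 1 only and 99 bp for replicate 2 only. Whether the order holds beyond these differences was not tested. By library, 77.4% and 75.5% of the conventional regions and 37.0% and 7.40% of the hmC-Seal regions had a bisulfite call (exact permutation p = 0.333, adjusted 0.467).

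**Figure D5:**
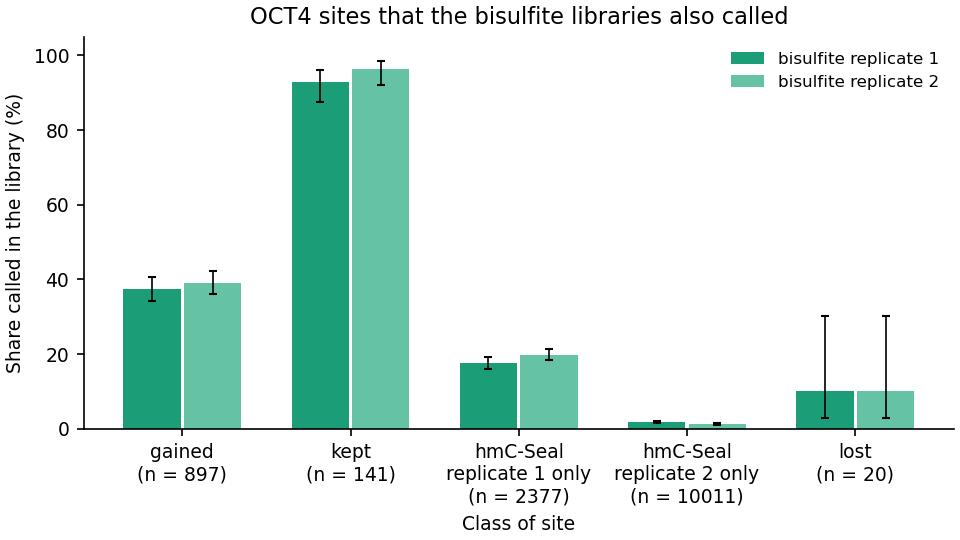
Share of sites (vertical, %) that bisulfite replicate 1 (dark) and replicate 2 (light) called, by class of site (horizontal), with 95% Wilson intervals. The order is the same for both libraries, from kept sites (92.9% and 96.5%) through gained sites (37.5% and 39.1%) to sites of hmC-Seal replicate 2 only (1.76% and 1.24%).

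The 252 gained sites called by both bisulfite libraries had median folds of 11.4 and 6.05 and a median width of 187 bp, and the 462 called by neither 6.97 and 6.30 and 116 bp, so the sites with a call were wider. Within 5 kb of a gene start lay 12.6% of those with a call and 11.5% of those without, and inside a gene 42.5% and 46.1%, with overlapping intervals. On X lay 2.76% (1.59 to 4.76) and 5.41% (3.69 to 7.87). Clusters within 10 kb, counted inside each set, held 5 sites, or 1.15% (0.492 to 2.66), and 20, or 4.33% (2.82 to 6.59). Sites of one cluster are not independent, so these intervals are no basis for a difference. All 16 gained sites in bins with 10 or more summits are in the second set. They form the clusters at the start of chromosome 9 and near Pisd-ps1 and Gm15065.

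The leading kept sites are given beside the gained ones. The highest fold of a kept site was 59.5 in hmC-Seal replicate 1 and 19.9 in replicate 2. For gained sites the highest folds were 45.2 and 88.3. Of 141, 62 were called in all 4 libraries. The leading one lay 581 bp inside Crlf2, a cytokine receptor gene (chr5:109558351-109558744), with folds of 27.6 and 23.3 in the conventional and 59.5 and 19.9 in the hmC-Seal libraries. The next lay inside Lats2, a Hippo pathway kinase gene (chr14:57732718-57733051), with 8.75 and 9.89 against 28.3 and 14.7. The others were near Gm14444, Car8 and inside Dgkg, and all 5 had calls in both bisulfite libraries. Folds of different libraries stand side by side here as values of each list.

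Among lost sites, the leading one lay 320 bp upstream of the pseudogene Gm10222 (chr1:24612862-24613179) with conventional folds of 2.38 and 2.75. Within 1 kb on both sides of it, hmC-Seal replicate 2 called regions that also overlapped a conventional one. The site itself thus had no hmC-Seal call, but hmC-Seal signal was called beside it. The next lay inside Myo3a (chr2:22587745-22587853) with conventional folds of 4.32 and 3.84. The other 3 of the leading 5, near the pseudogenes Gm6863, Eif3s6-ps1 and Gm4822, had folds between 2.49 and 13.1. None of these 5 had a bisulfite call.

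Gained sites do not overlap a conventional region by definition. The median distance from a gained site to the nearest conventional region was 3261 kb, beside 3620 kb for points set every 50 kb, and 12 of 897, or 1.34%, lay within 10 kb of one, beside 0.214% of the points. When each of the 4 lists was shortened to its 186 regions of highest −log10 q, 26 stretches were in both hmC-Seal lists, 22 of them gained and 4 kept. In the same shortened lists, 100 stretches were in both conventional lists, and 58 of them in no hmC-Seal list. Of the 22 gained sites, 4, or 18.2%, had a bisulfite call and 5 were in clusters. The shortened lists take nearly all of each conventional list and the top of each hmC-Seal list, so a conventional site further down an hmC-Seal list counts as absent there, and the 22 and the 58 are not a direction. In the full lists, 106 stretches were in both conventional lists, and 20 of them in no hmC-Seal list.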

How the data were processed

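The deposited peak lists of 6 OCT4 libraries (2 per preparation) were used, with groups and replicate numbers from the labels. Per the labels and the study's methods, the authors trimmed reads with fastp 0.19.4, aligned them to GRCm38 with Bowtie 2 2.4.1 or, for bisulfite and hmC-Seal reads, Bismark 0.22.3, kept inserts of at most 120 bp and ran MACS 2 on each library with IgG as control (q threshold 0.05). The authors' fold enrichment relates the summit's pileup to IgG nearby. The deposited −log10 p and −log10 q describe the same summit, and the deposited score is 10 times −log10 q without decimals. Which IgG library served the hmC-Seal calls was not given in the sources used here.

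Distinct regions on chromosomes 1 to 19 and X were joined where they overlapped by 1 bp. Distances run from the middle of a stretch to the nearest start in the RefSeq gene table of GRCm38.p6 (49554 genes, 35541 with a strand, from RefSeq promoters or by symbol from GENCODE M1). Genes without a strand have a span but no start. Libraries were compared by exact permutation tests over 7 measures. Fragments were recovered from the formulas of MACS 2 as the whole number that gave both fold and p (tolerance 0.002 in −log10 p), for 98.0% to 99.5% of summits by library, an estimate devised with the data seen and tested on simulated data. Pileups per fragment were 0.708, 0.807, 0.809 and 1 in the conventional and hmC-Seal libraries. The numbers of libraries and of fragments limit the precision.

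The sites and gene lists were chosen with earlier results of these data known. Named in the text were the 10 gained sites with the best worse rank of −log10 q over both hmC-Seal libraries, the 10 such within 1 kb of a protein-coding start (the eleventh, Acoxl, added after its values were seen), the 5 largest clusters (6 pairs tied), the 5 leading kept and lost sites and gained sites within 5 kb of 87 listed genes. The farthest site, genes holding 2 sites and the promoter sequences were named after their values were seen. Alternatives changed the overlap rule, q threshold, list length, dense bins, distance limits, gene set and libraries. Peak sequences by coordinate were not used here. Scripts ran in Python 3.11.15 with scipy 1.17.1, pandas 2.3.3 and numpy 2.4.6.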

Additional observations from a re-analysis of the deposited data

Results flagged for a closer look

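Sequences other than chromosomes 1 to 19 and X were outside the comparison. There, both hmC-Seal libraries called 101 stretches, 94 of them in no conventional library, 7 on Y and 87 on 7 unplaced or other sequences. Both conventional libraries called 14 stretches there, 2 of them in no hmC-Seal library.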

How the results depend on the processing

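Over all alternatives, 77 values stayed within the counting interval of the main value, within 1.5 times a count or in the same direction, and 21 moved. With lists of equal length there were 22 gained sites, with 40.9% inside a gene, 22.7% in clusters, 0 on X, 18.2% called with bisulfite and a median distance of 66942 bp. Clusters held 1.48% without dense bins and 6.47% with gaps of 50 kb. With protein-coding genes only, 7.36% lay within 5 kb of a start, 36.5% inside a gene, and the median distance was 52524 bp; within 1 kb of any start lay 2.12%. Leaving out each library in turn gave 934 to 10911 gained sites, 11.6% to 15.4% near a start, 43.9% to 45.8% inside a gene, 3.73% to 9.71% in clusters, 3.94% to 5.64% on X, 6.21% to 50.8% with a bisulfite call, median distances of 25093 to 34110 bp and a ratio of regions of 18.1 to 57.3. The number moved by over 1.5 times when either hmC-Seal library was left out, to 10911 (replicate 1 out) and 3276 (replicate 2 out), since a single list then decides. With the replicate block, pairing libraries by number, there were 899 gained sites, the shares and the median distance stayed within the same intervals, and the ratio of 32.3 had an exact sign-flip p of 0.5, the smallest 2 pairs allow. Differences between replicates over 274 bins of 10 Mb had a correlation of -0.0094 between the preparations. The conventional lists held 186 and 200 regions, fewer than the bins, so this value cannot decide whether the numbers mark a shared pool. Whether libraries of the same number share material was not tested. The cause of each change was not tested. Few fragments in hmC-Seal replicate 2 limit how firmly single sites are placed.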
